A study of Mus musculus with 16 samples.

Results

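The 8 genes Oas1a, Oas1b, Oas1c, Oas1g, Oas2, Oas3, Oasl1 and Oasl2 form the 2′,5′-oligoadenylate synthetase (OAS) family, measured here in mouse bone marrow-derived dendritic cells (BMDCs). They were chosen by name from the 23356 genes of the deposited table, and all 8 were in it. BMDCs of C57BL/6 background were grown for 6 days with GM-CSF and IL-4 from sex-matched mice aged 6 to 12 weeks. They were left untreated or given c-di-GMP, a bacterial cyclic dinucleotide that is bound by the sensor STING, for 18 h. The dose was 25 µg/ml by the labels, and the legends of the study's RNA-seq figures give a higher one. The study asked how gene programs induced by c-di-GMP depended on STING, IRF1 and the pair IRF3 and IRF7. The 4 genotypes were wild type (WT), Tmem173-/- (lacking the gene of STING), Irf1-/- and Irf3/7-/- (lacking both genes), which gave 8 conditions of 2 samples each and 16 samples in all. RNA-seq levels are given as FPKM, fragments scaled by transcript length and by the number of mapped fragments, so that levels of different genes can be compared per length. The authors combined both samples of a condition into 1 FPKM with a 95% interval from Cuffdiff, so no spread between samples was seen here and no test over samples could be made.

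The OAS enzymes bind double-stranded RNA and respond by joining ATP into short oligoadenylates, which serve as a second messenger of antiviral defence. Their genes are classical targets of interferon, whose receptor activates a complex that holds STAT2 and IRF9 and binds the interferon-stimulated response element (ISRE), a DNA element that members of the IRF family can also bind. Dendritic cells make type I interferon when STING is engaged, and IRF3 and IRF7 are its best known transcription factors there.

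In the mouse the members differ in what they do. Oas1a and Oas1g are active synthetases, Oas1b and Oas1c are members without synthetase activity, and C57BL/6 mice carry a truncating allele of Oas1b. Oas2 and Oas3 join several synthetase units in 1 protein, Oasl2 carries ubiquitin-like domains behind an active synthetase unit, and Oasl1 has the same layout but is inactive and is known as an inhibitor of Irf7 translation. All lie on chromosome 5 in the table's coordinates, which match mouse build GRCm38. Oas1, Oas2 and Oas3 genes occupied 191 kb, from 120730333 to 120921647, with 10 family genes in the table. Oasl2 and Oasl1 lay next to each other within 41.0 kb, from 114896934 to 114937911.

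The stretch before the start of transcription is shown for 5 members, because the ISRE core, here the letters GAAA, any 2 bases and GAAA again, lies there in 4 of them, and because Oasl1, the member with the largest change in level, has no match in this window. Sequences are from RefSeq on GRCm38.p6 and cover the 250 bases before the start, written on the strand of the gene, with the matches to either strand in capitals. They span chr5:120907526-120907775 (Oas1a, minus strand), chr5:120887614-120887863 (Oas1g, minus), chr5:120812515-120812764 (Oas1c, minus), chr5:120777660-120777909 (Oas3, minus) and chr5:114922990-114923239 (Oasl1, plus).
Oas1a: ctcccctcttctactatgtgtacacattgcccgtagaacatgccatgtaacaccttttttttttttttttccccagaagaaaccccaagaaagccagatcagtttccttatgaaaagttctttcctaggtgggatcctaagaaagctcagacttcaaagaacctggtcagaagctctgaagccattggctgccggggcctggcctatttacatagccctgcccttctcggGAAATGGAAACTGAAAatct
Oas1g: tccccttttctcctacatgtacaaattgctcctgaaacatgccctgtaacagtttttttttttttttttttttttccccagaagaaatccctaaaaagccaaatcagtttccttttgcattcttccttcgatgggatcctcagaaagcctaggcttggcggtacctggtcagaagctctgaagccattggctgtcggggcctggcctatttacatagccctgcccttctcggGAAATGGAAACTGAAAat
Oas1c: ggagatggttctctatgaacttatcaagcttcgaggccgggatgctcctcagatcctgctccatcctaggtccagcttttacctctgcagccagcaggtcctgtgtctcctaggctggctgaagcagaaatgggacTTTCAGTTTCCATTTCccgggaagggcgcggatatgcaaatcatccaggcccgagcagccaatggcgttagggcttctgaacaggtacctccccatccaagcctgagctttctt
Oas3: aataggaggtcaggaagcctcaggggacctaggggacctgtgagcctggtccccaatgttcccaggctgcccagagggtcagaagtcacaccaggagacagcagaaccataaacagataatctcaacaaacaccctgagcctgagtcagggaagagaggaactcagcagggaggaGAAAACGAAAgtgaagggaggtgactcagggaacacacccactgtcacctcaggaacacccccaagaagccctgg
Oasl1: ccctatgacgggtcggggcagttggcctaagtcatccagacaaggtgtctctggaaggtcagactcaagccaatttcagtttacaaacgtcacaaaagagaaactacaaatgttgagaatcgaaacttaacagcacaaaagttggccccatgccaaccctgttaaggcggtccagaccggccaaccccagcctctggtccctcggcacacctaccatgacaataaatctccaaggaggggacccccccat

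Oas1a and Oas1g held the same run of 16 letters, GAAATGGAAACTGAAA, in which a pair of matches overlap, and Oas1c held the reverse complement of that run. With positions counted back from -1, the base just before the start, the run began at -20 in Oas1a and at -18 in Oas1g, and ended at -99 in Oas1c. Oas3 held 1 match, from -75 to -66. Of the 6 members with a RefSeq promoter in the table used, 4 thus held the ISRE core, counting 250 bases before to 50 after the start, against 3.44% of all 32851 promoters of that length. Oasl2 had no match in its window, which says only that these letters were not in it. The STAT site TTCNNNGAA, searched on both strands, was found in 1 of the 6, Oas1a, from -98 to -90, and in 8.30% of all promoters, and it overlapped no ISRE match. A match of letters describes the sequence and is no measure of binding.

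A gene was tested in a comparison when it reached 1 FPKM in one of the conditions, and it was called changed when it differed by more than 2-fold on the scale log2(FPKM + 0.1) and the authors' intervals did not overlap. All log2 values below are differences on that scale, which understates changes of low genes. The interval reached 22.2% to 60.5% of the level to either side for the members, and was widest for Oas1g in treated Tmem173-/- BMDCs. Oas1a and Oas1g are near copies: 66.3% of the 35-base words of Oas1a transcripts, the length of the reads, also occur in Oas1g, so their separate values are uncertain. For Oas1c 18.1% of such words occur in other genes, for Oas1b 5.36%, and for the other 4 members at most 1.45%.

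The targeted genes were read first as a check on the labels. Tmem173 was 103 FPKM in untreated WT and 8.97 in untreated Tmem173-/- BMDCs, and Irf7 was 687 FPKM in treated WT and 4.97 in treated Irf3/7-/- BMDCs. Irf1 was 149 FPKM in untreated WT and 25.9 in untreated Irf1-/- BMDCs, yet reached 116 after c-di-GMP there, against 245 in WT. Irf1 was also low in Tmem173-/- BMDCs, at 24.1 FPKM untreated and 23.3 treated, so its transcript did not set the Irf1-/- conditions apart. Irf3 was lower in untreated Irf3/7-/- BMDCs, at 7.74 against 19.9 FPKM, but not after c-di-GMP, at 20.2 against 15.8. The transcript of Irf3 in treated cells thus did not check that label. A whole-gene FPKM also counts exons that a deletion leaves in place, and no values per exon were available. Why Irf3 rose with c-di-GMP in Irf3/7-/- BMDCs was not tested. The treated Tmem173-/- condition was read from an abbreviated column name.

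Wild-type BMDCs expressed every OAS gene before treatment, and all 8 rose with c-di-GMP. Oasl1 rose most, 101-fold, and Oas1c least, 2.82-fold. Higher calls made up 10.5% of the 11201 genes tested, and the median log2 change of the members was 3.07, against 0.00 over all genes tested. Since bulk RNA was measured, fewer cells that express a gene and less RNA per cell cannot be told apart in this or any later comparison.

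Among the active Oas1 enzymes, Oas1a was 19.4 FPKM (interval 15.0 to 23.8) in untreated and 96.1 (73.9 to 118) in treated WT BMDCs. Oas1g was 3.69 FPKM (2.67 to 4.69) and 30.4 (23.5 to 37.3) in the same conditions. The treated intervals lay far above the untreated ones for both genes. Of the inactive Oas1 members, Oas1b went from 3.61 FPKM (2.59 to 4.63) to 29.8 (22.8 to 36.8). Oas1c, the lowest member after treatment, went from 1.86 FPKM (1.29 to 2.44) to 5.43 (4.05 to 6.82). The rise of Oas1b was 8.06-fold, close to the 8.04-fold rise of Oas1g.

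The larger synthetases moved by like factors from different levels. Oas2 went from 2.67 FPKM (1.98 to 3.37) to 23.9 (18.5 to 29.4), an 8.69-fold rise. Oas3 went from 17.8 FPKM (13.8 to 21.9) to 156 (120 to 193), an 8.73-fold rise, and in both conditions its interval lay above that of Oas2.

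The OAS-like genes were the highest members after treatment. Oasl2, the highest member before treatment, went from 33.1 FPKM (25.3 to 40.9) to 323 (246 to 401), a 9.73-fold rise. Oasl1 went from 8.92 FPKM (6.78 to 11.1) to 911 (689 to 1133), and its rise ranked 21 among the 11201 genes tested. The neighbouring pair thus changed places: Oasl2 lay above Oasl1 before treatment and below it after, with intervals apart both times.

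**Figure D1:**
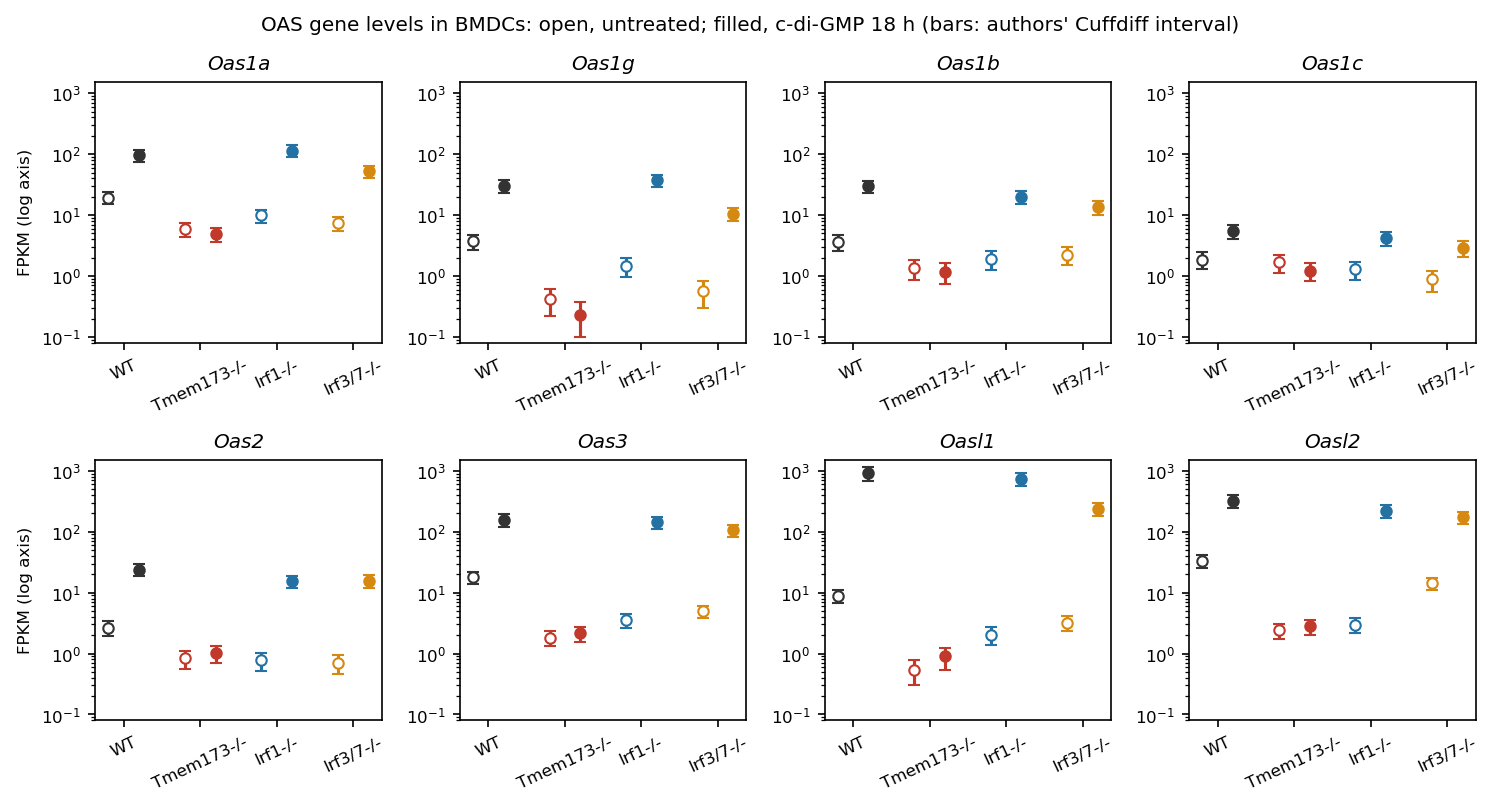
FPKM of each OAS gene (log axis) in untreated (open circles) and c-di-GMP treated (filled circles) BMDCs of 4 genotypes, with the authors' Cuffdiff interval as bars. All 8 genes sit higher after c-di-GMP in WT, Irf1-/- and Irf3/7-/- BMDCs, Oasl1 reaches 911 FPKM in treated WT BMDCs, and no gene passes 5.91 FPKM in Tmem173-/- BMDCs.

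The make-up of the family changed with treatment. The 8 levels summed to 91.1 FPKM in untreated and 1576 in treated WT BMDCs, and the share of Oasl1 in that sum went from 9.79% to 57.8%. Oasl2 went from 36.4% to 20.5% of the sum and Oas1a from 21.3% to 6.10%, although both rose in level. By level, untreated WT BMDCs ranked Oasl2 first, then Oas1a and Oas3, whose intervals overlapped, then Oasl1, and then Oas1g, Oas1b, Oas2 and Oas1c, whose neighbouring intervals overlapped. Treated WT BMDCs ranked Oasl1, Oasl2, Oas3 and Oas1a in that order with each interval apart from the next, followed by Oas1g, Oas1b and Oas2, with neighbours overlapping, and by Oas1c, apart and lowest.

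**Figure D2:**
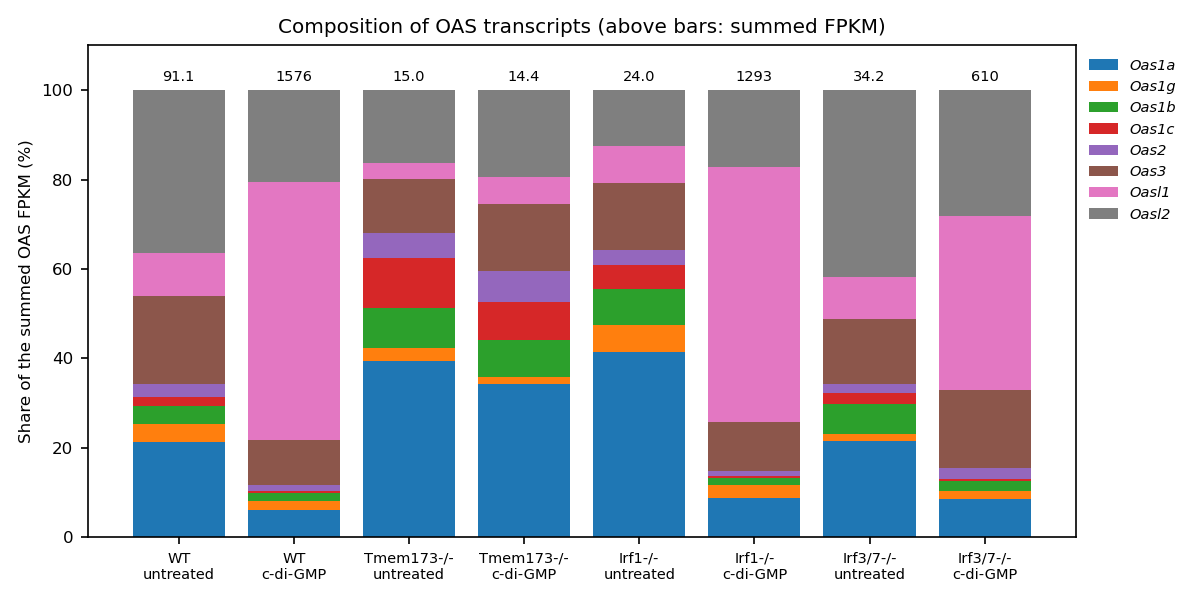
Share of each OAS gene in the summed OAS FPKM (percent, stacked bars) in each of the 8 conditions, with the summed FPKM above each bar. Oasl1 takes 57.8% of the sum in treated WT, 57.1% in treated Irf1-/- and 38.9% in treated Irf3/7-/- BMDCs, and 6.23% in treated Tmem173-/- BMDCs, where Oas1a leads with 34.2%.

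No OAS gene was called changed by c-di-GMP in Tmem173-/- BMDCs. Of the 6 members that reached 1 FPKM there, 0 were called, where 0.0552% of 10867 genes were called in either direction. Their log2 changes ran from -0.42 for Oas1c to 0.24 for Oas2. Oasl1, not tested there for its low level, was 0.547 FPKM (0.300 to 0.786) untreated and 0.898 (0.543 to 1.24) treated. Oas1g, also too low to be tested, was 0.421 FPKM (0.219 to 0.619) and 0.231 (0.0998 to 0.379), and the intervals of both genes overlapped between the conditions.

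The levels in Tmem173-/- BMDCs were low to begin with. Oas1a, the highest member there, was 5.91 FPKM (4.32 to 7.50) untreated and 4.93 (3.60 to 6.23) treated. Oasl2 was 2.43 FPKM (1.75 to 3.11) and 2.78 (2.02 to 3.55), and Oas3 was 1.82 FPKM (1.31 to 2.33) and 2.15 (1.58 to 2.73). The sum of the family was 15.0 FPKM untreated and 14.4 treated.

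Irf1-/- BMDCs raised all 8 OAS genes with c-di-GMP, where 9.67% of 11164 genes were called higher. The median log2 change of the members was 4.35. Oas1a went from 9.91 FPKM (7.54 to 12.3) to 115 (88.2 to 141), and Oas1g from 1.47 FPKM (0.978 to 1.98) to 37.4 (28.8 to 46.1). Oas3 went from 3.60 FPKM (2.67 to 4.53) to 142 (109 to 175), a 38.4-fold rise. In all 3 the untreated level lay under that of WT while the treated interval overlapped with that of WT.

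The OAS-like genes showed the same arrangement in Irf1-/- BMDCs. Oasl2 went from 2.97 FPKM (2.14 to 3.79) to 221 (168 to 275), a 72.1-fold rise. Oasl1 went from 2.02 FPKM (1.37 to 2.68) to 738 (559 to 918), a 348-fold rise that ranked 11 among the genes tested. Oas2 went from 0.783 FPKM (0.525 to 1.04) to 15.3 (11.9 to 18.7). Oas1b and Oas1c rose 9.89-fold and 3.08-fold, to 19.9 and 4.19 FPKM.

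Irf3/7-/- BMDCs also raised all 8, where 10.2% of 11283 genes were called higher, and the median log2 change of the members was 3.79. Oasl1 went from 3.22 FPKM (2.34 to 4.12) to 237 (182 to 292), and Oasl2 from 14.3 FPKM (10.9 to 17.6) to 172 (131 to 213). These treated intervals overlapped, so Oasl1 did not stand apart from Oasl2 as it did in the other responding genotypes. Oas3 went from 4.95 FPKM (3.78 to 6.12) to 106 (81.4 to 131), and Oas2 from 0.695 FPKM (0.463 to 0.936) to 15.6 (12.1 to 19.1). Oas1a went from 7.35 FPKM (5.52 to 9.16) to 52.1 (40.4 to 63.8), and Oas1g from 0.568 FPKM (0.299 to 0.818) to 10.5 (8.0 to 13.0). The rise was 5.80-fold for Oas1b, to 13.5 FPKM, and 3.07-fold for Oas1c, to 2.91 FPKM.

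**Figure D3:**
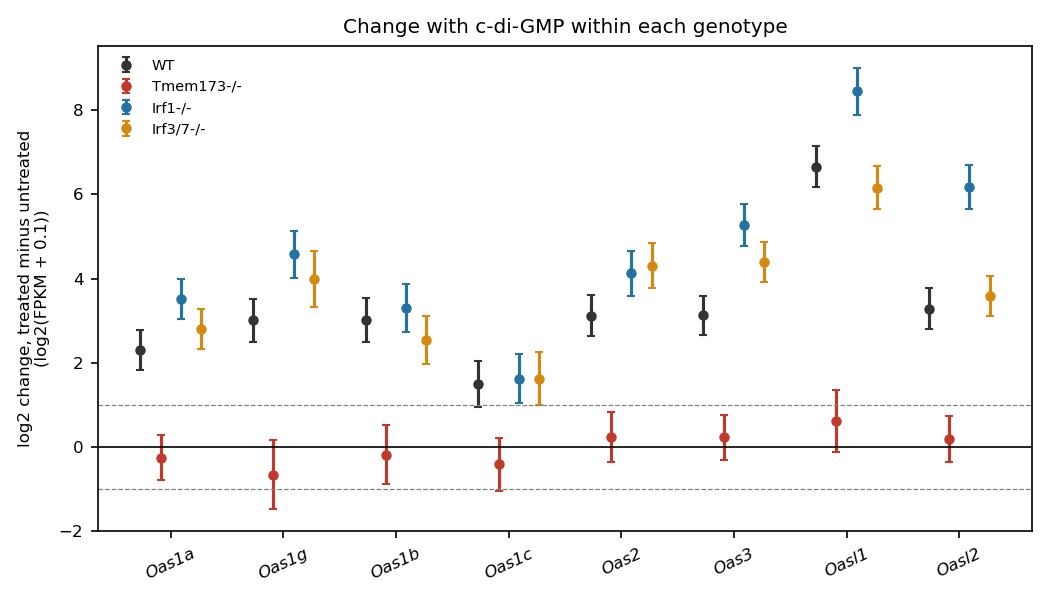
Difference in log2(FPKM + 0.1) between treated and untreated BMDCs for each OAS gene and genotype, with bars for the 95% bound taken from the authors' intervals and dashed lines at 2-fold. Values run from 1.49 to 6.66 in WT, from 1.62 to 8.44 in Irf1-/- and from 1.62 to 6.16 in Irf3/7-/- BMDCs, and lie between -0.66 and 0.62 in Tmem173-/- BMDCs.

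The size of the response itself was compared by the difference between the log2 change in a knockout and that in WT, with a 95% bound carried over from the authors' intervals. It was computed only for the members and the listed genes, so no share over all genes can be set beside the counts of such bounds. In Irf1-/- BMDCs the difference was above 0 for all 8 members and its bound excluded 0 for 6, or for 5 with a pseudocount of 1 FPKM, where Oas2 went from 1.0 to 0.42. It was 2.89 (2.18 to 3.60) for Oasl2, 2.14 (1.46 to 2.82) for Oas3 and 1.78 (1.03 to 2.54) for Oasl1, and it was 0.29 (-0.48 to 1.07) for Oas1b and 0.13 (-0.68 to 0.94) for Oas1c. In Irf3/7-/- BMDCs the bound excluded 0 for 3 members, Oas3 at 1.27 (0.60 to 1.94), Oas2 at 1.18 (0.46 to 1.91) and Oas1g at 0.98 (0.16 to 1.81), and 6 of the 8 differences were above 0. With a pseudocount of 1 FPKM Oas2 became 0.53 and Oas1g 0.14, both with bounds that included 0. Oasl1 was at -0.50 (-1.21 to 0.21) there, and at -0.70 with a bound that excluded 0 under that pseudocount. In Tmem173-/- BMDCs all 8 bounds excluded 0, from -6.03 (-6.92 to -5.15) for Oasl1 to -1.91 (-2.75 to -1.07) for Oas1c.

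The comparisons between genotypes, given next for untreated and then for treated BMDCs, share the WT conditions with these differences and with each other, so they are not independent. In untreated BMDCs, 5 of the 8 members were lower in Irf1-/- than in WT, where 3.52% of 11017 genes were called lower. They were Oasl2 at a log2 difference of -3.43, Oas3 at -2.28, Oasl1 at -2.09, Oas2 at -1.65 and Oas1g at -1.27, while Oas1a, at -0.96, and Oas1b, at -0.88, had intervals apart but stayed under 2-fold. Untreated Irf3/7-/- BMDCs had 7 of 8 members lower, where 0.863% of 11004 genes were called lower. Oas1g was at -2.50, Oas3 at -1.83, Oas2 at -1.80, Oasl1 at -1.44, Oas1a at -1.39 and Oasl2 at -1.21, and Oas1c was called at 0.880 against 1.86 FPKM, just past the threshold, while Oas1b was at -0.66.

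Untreated Tmem173-/- BMDCs had the lowest untreated value for 6 of the 8 members, though not for Oas1c and Oas2. Its interval was apart from those of both other untreated knockouts only for Oas3 and Oasl1. There 7 members were lower than in WT, where 5.95% of 11101 genes were called lower, and the differences ran to -3.80 for Oasl1, -3.72 for Oasl2 and -3.22 for Oas3. The member not called was Oas1c, at -0.15, with 1.67 FPKM against 1.86 in WT.

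In treated Irf1-/- BMDCs, 0 of 8 members were called against treated WT, where 7.56% of 11079 genes were called in either direction. Their log2 differences ran from -0.65 for Oas2 to 0.30 for Oas1g, with the intervals of all 8 overlapping. Treated Irf3/7-/- BMDCs had 3 members lower than treated WT, where 2.69% of 11209 genes were called lower, and these were Oasl1 at -1.94, Oas1g at -1.52 and Oas1b at -1.14. The other 5 lay between -0.91 for Oasl2 and -0.56 for Oas3, so all 8 were on the lower side.

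Set directly against treated Irf1-/- BMDCs, treated Irf3/7-/- BMDCs had Oas1g at -1.82, Oasl1 at -1.64 and Oas1a at -1.14, which made 3 of 8 lower, where 3.22% of 11235 genes were called lower. Oas2 was at 0.03 in that comparison. Treated Tmem173-/- BMDCs had all 8 lower than treated WT, where 13.5% of 11318 genes were called lower, with a median log2 difference of -5.33 and a range from -9.83 for Oasl1 to -2.06 for Oas1c.

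**Figure D4:**
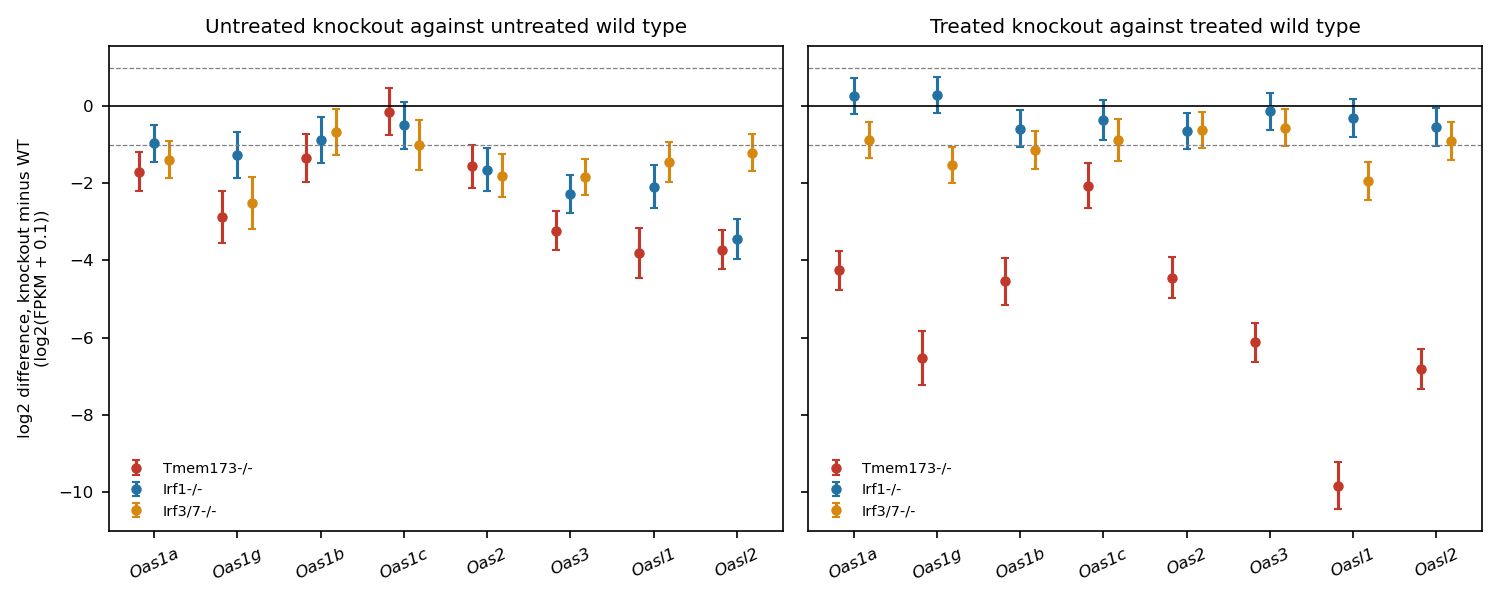
Log2 differences of each OAS gene between a knockout and WT, untreated on the left and treated with c-di-GMP on the right, with bars for the 95% bound from the authors' intervals and dashed lines at 2-fold. Irf1-/- BMDCs run from -3.43 to -0.50 untreated and from -0.65 to 0.30 treated, Irf3/7-/- BMDCs from -2.50 to -0.66 and from -1.94 to -0.56, and Tmem173-/- BMDCs reach -9.83 for Oasl1 after treatment.

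The conditions also differed in markers of other cell types. Markers of dendritic cells, 8 of 8 in the table, summed to between 4837 and 8706 FPKM, and at least 7 reached 1 FPKM in every condition, with Cd209a at 0 in treated WT BMDCs. Cd74 made up 4278 of the 6453 FPKM in untreated WT. H2-Ab1 and H2-Aa were 278 and 364 FPKM in untreated Irf1-/- against 650 and 1031 in untreated WT BMDCs, with intervals apart. Itgax and Cd209a went the other way there, at 369 against 210 and 1.30 against 0.182 FPKM, also with intervals apart. Markers of NK cells, 4 of 4 in the table, summed to 355 FPKM in untreated and 334 in treated WT BMDCs and to 322 and 914 in the Irf3/7-/- cells. They summed to 5.70 and 8.52 FPKM where Irf1 was deleted and to 0.0658 and 0.0657 where Tmem173 was. Gzma made up nearly all of these sums where it was detected, at 349 of the 355 FPKM in untreated WT and 900 of the 914 in treated Irf3/7-/- BMDCs. Klrb1c fell with treatment from 4.05 to 0.618 FPKM in the Irf3/7-/- cells, where the sum rose, and from 1.35 to 0.151 in WT. The NK cell markers Ncr1 and Gzma were at 0 in untreated Tmem173-/-, Gzma in treated Tmem173-/-, and Ncr1 in both Irf1-/- conditions. Ncr1 was under 1 FPKM everywhere, at 0.193 and 0.290 FPKM in WT and 0.397 and 0.661 in the Irf3/7-/- cells. T cell markers, 3 of 4 in the table, summed to 46.3 and 32.7 FPKM in WT BMDCs, to 0.719 and 0.530 where Tmem173 was deleted, to 3.35 and 2.78 where Irf1 was, and to 66.8 and 119 in the Irf3/7-/- cells. Neutrophil markers, 2 of 3 in the table, summed to 10392 and 7545 FPKM in the Tmem173-/- cells, against 2533 and 1106 in WT, 1377 and 733 in Irf1-/-, and 1304 and 792 in the Irf3/7-/- cells. S100a8 made up nearly all of these sums, and its FPKM lay above its own interval, at 2531 FPKM with an interval of 1204 to 2169 in untreated WT BMDCs. Such a mismatch was found for 196 genes of the table and for 0 of the 8 OAS genes. Macrophage markers, 5 of 6 in the table, summed to 93.4 and 110 FPKM in WT and to 254 and 262 in Tmem173-/- BMDCs, and to between 62.8 and 86.8 in the other knockouts. NK and T cell markers were thus low in the untreated Tmem173-/- and Irf1-/- BMDCs, where OAS genes were low, and not in the untreated Irf3/7-/- BMDCs, where OAS genes were also low. Their part in the differences between genotypes was not tested.

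Among 4 other genes of the oligoadenylate pathway, Akap7 rose and Abce1 fell with c-di-GMP in WT BMDCs. Of the 4 genes 3 were tested, with a median log2 change of -0.84 against 0.00 over all genes.

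Abce1, a ribosome recycling factor, fell with c-di-GMP in WT from 48.4 FPKM (35.8 to 60.9) to 18.6 (14.1 to 23.0). It also fell in Irf3/7-/- BMDCs, from 51.2 to 23.3 FPKM, where 7.68% of genes were called lower, against 9.96% in WT. In Irf1-/- BMDCs it was 50.6 and 26.4 FPKM, a log2 difference of -0.93, and in Tmem173-/- BMDCs 45.6 and 54.9. Akap7, which has a domain of the family that degrades oligoadenylates, rose from 2.65 FPKM (1.90 to 3.40) to 11.3 (8.53 to 14.0) in WT and from 2.53 to 6.56 in Irf1-/- BMDCs. It was 2.45 and 4.05 FPKM in Irf3/7-/- and 3.19 and 2.67 in Tmem173-/- BMDCs, and its treated level was lower than in WT in both, with log2 differences of -1.46 and -2.04. In treated Irf1-/- BMDCs Akap7 was at -0.77 against treated WT, with intervals apart but under 2-fold. For Akap7 the log2 change in Irf3/7-/- BMDCs was smaller than in WT by a bound that excluded 0, at -1.35 (-2.11 to -0.59).

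Pde12, a phosphodiesterase that degrades oligoadenylates, was 10.9 and 6.06 FPKM in WT, 9.30 and 10.5 without Tmem173, 11.4 and 8.54 without Irf1, and 12 and 7.58 without Irf3 and Irf7. It was called in none of the 4 c-di-GMP comparisons. Enpp1, a hydrolase of nucleotides including cGAMP, stayed under 1 FPKM everywhere, with a highest value of 0.797, and was not tested. None of the 3 tested genes was called in any untreated comparison between a knockout and WT. Over all genes tested, 5.95% were called lower in untreated Tmem173-/-, 3.52% in untreated Irf1-/- and 0.863% in untreated Irf3/7-/- BMDCs.

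**Figure D5:**
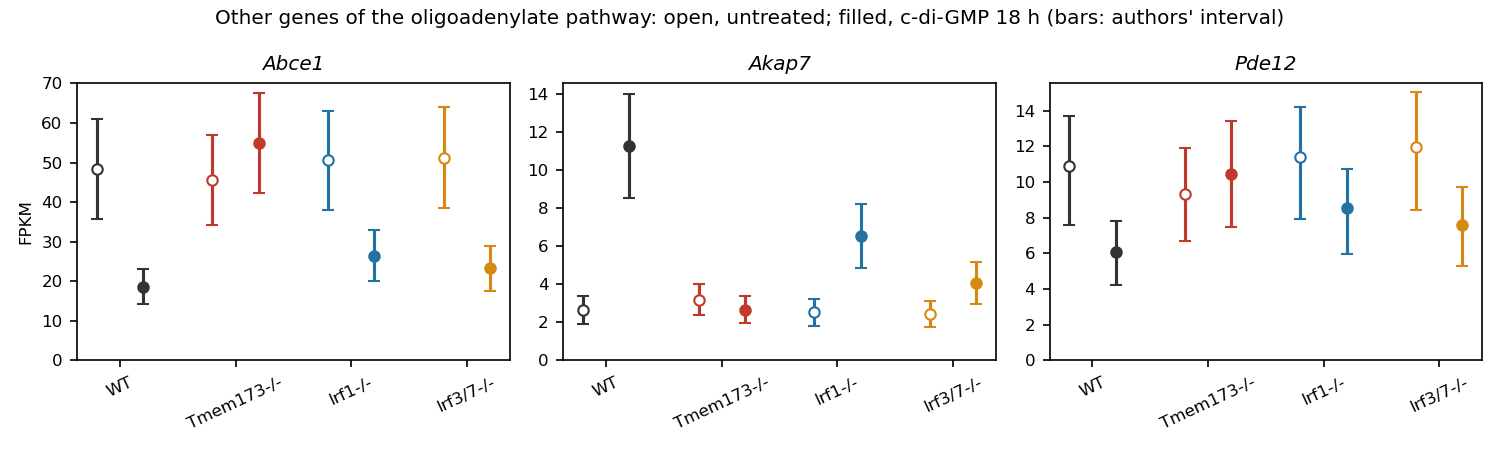
FPKM (linear axis from 0) of Abce1, Akap7 and Pde12 in untreated (open) and c-di-GMP treated (filled) BMDCs of 4 genotypes, with the authors' Cuffdiff interval as bars. Abce1 sits at 18.6 FPKM in treated WT against 48.4 in untreated WT BMDCs, and Akap7 at 11.3 against 2.65.

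The other Oas1 copies of the mouse, Oas1d, Oas1e, Oas1f and Oas1h, were under 1 FPKM in every condition and were not tested. Their highest value was 0.276 FPKM, for Oas1h in treated WT BMDCs. In each of WT, Irf1-/- and Irf3/7-/- BMDCs, c-di-GMP raised 3 of 3 genes of other proteins that act on double-stranded or unusual nucleic acid, the kinase Eif2ak2, the editing enzyme Adar and the sensor Zbp1, and 0 of 3 in Tmem173-/- BMDCs. In WT these were 23.5 and 53.3 FPKM for Eif2ak2, 28.5 and 60.3 for Adar, and 111 and 264 for Zbp1. Their median log2 change in WT, 1.18, was smaller than the 3.07 of the OAS genes, and no test of that difference was made. Over all genes tested, 10.5% in WT, 9.67% in Irf1-/- and 10.2% in Irf3/7-/- BMDCs were called higher with c-di-GMP. In Tmem173-/- BMDCs 0.0552% were called in either direction.

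Of 5 genes of interferon signalling (Stat2, Irf9, Ifnar1, Ifnar2 and Ifnb1), 3 rose with c-di-GMP in WT, 3 in Irf1-/-, 2 in Irf3/7-/- and 0 of 4 tested in Tmem173-/- BMDCs. Higher calls made up 10.5%, 9.67% and 10.2% of all genes tested in WT, Irf1-/- and Irf3/7-/- BMDCs. In Tmem173-/- BMDCs 0.0552% of all genes tested were called in either direction. Ifnb1, the gene of interferon beta, was listed at 0 in untreated WT, Tmem173-/- and Irf3/7-/- BMDCs. After c-di-GMP it was 22.6 FPKM (15.8 to 29.3) in Irf3/7-/- BMDCs, against 2.93 (1.76 to 4.08) in WT, 3.53 (2.17 to 4.85) without Irf1 and 0.0474 without Tmem173. The Irf3/7-/- cells thus had the highest Ifnb1 level after treatment, called higher than treated WT, where 4.61% of genes were called higher, while 3 OAS genes were lower there than in treated WT. Any link between Ifnb1 and OAS levels was not tested.

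Stat2, a subunit of the interferon-activated complex, was 42.4 FPKM in untreated WT, 14.4 in untreated Tmem173-/-, 22.9 in untreated Irf1-/- and 28.2 in untreated Irf3/7-/- BMDCs. After c-di-GMP it was 155, 15.4, 156 and 109 FPKM in the same order. In untreated Tmem173-/- BMDCs Stat2 and Irf9, its partner, were lower than in WT, with log2 differences of -1.55 and -1.15. There 5.95% of all genes tested were called lower. In untreated Irf1-/- and Irf3/7-/- BMDCs 0 of the 4 genes tested were called, where 3.52% and 0.863% of all genes were called lower. Stat2 in untreated Irf1-/- BMDCs, at -0.88, had its interval apart from that of WT but stayed under 2-fold. In the untreated Irf1-/- and Irf3/7-/- comparisons 5 and 7 OAS genes were lower. Whether Stat2 or Irf9 levels bear on those of the OAS genes was not tested.

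Genes with the most alike profile over the 8 conditions were looked up for each member among 11811 genes. The measure was the root mean square difference of log2(FPKM + 0.1) after centring each profile on its mean, and 0 would be the same profile. Oas1b was closest to Bst2 (0.19), a membrane protein that tethers virions, and to Trim30d (0.25). Oas1c was closest to Pnp2 (0.16), and Oas1a to Efna2 (0.28), with Dhx58, an RNA helicase of the RIG-I family, at 0.37. Dhx58 was also the closest gene to Oas2 (0.39). Oas3 lay closest to Dusp14 (0.39) and Rtp4 (0.40), and Oasl2 to Isg20 (0.38), an exonuclease gene induced by interferon. Oas1g lay closest to Usp18 (0.52), a protease that removes ISG15, and Oasl1 closest to Ifit3 (0.63) and Ifit1 (0.66), so these members had no neighbour as near as the rest.

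Within the family, Oas1a and Oas1b had the most alike profiles, at 0.30, and Oas3 and Oasl2 followed at 0.49. Oasl1 stood farthest from the others, with its nearest member, Oasl2, at 1.48.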

How the data were processed

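RNA-seq was run on 16 BMDC samples (TruSeq stranded mRNA, 35-bp paired-end reads). The deposited FPKM values came from Cuffdiff (version 1.06 in the submitters' processing notes), and the authors combined both samples of a condition into 1 value with a lower and an upper bound. The notes name build mm9, but 99.0% of 21681 gene positions overlapped the gene of the same name on GRCm38 (GENCODE M21). The study's methods name an opposing-strand setting for a SeqMonk step. For the Cuffdiff run the aligner, annotation and strand setting are not given in the sources used here. Labels state 25 µg/ml of c-di-GMP, and the study's legends 50 µg/ml. The methods state a target depth, but the depth reached is not in the table, so precision rests on the authors' intervals, which reached a median of 25.2% to 25.7% of the level to either side for 4723 genes of at least 10 FPKM throughout. Status was OK in all conditions for 23245 of 23356 genes. A further 4 columns, of another knockout, were not used.

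With a pseudocount of 0.1 FPKM, calls needed at least 1 FPKM, status OK, more than 2-fold and intervals apart, over all genes in 11 comparisons. Python 3.11.15, numpy 2.4.6 and pandas 2.3.3 were used, and scripts were tested on simulated data. Named genes were all members, 5 fixed lists and the 3 genes most like each member. Some listed genes are not reported here. Members and lists were chosen with earlier results of these data known. Shared words were counted over GENCODE transcripts. RefSeq promoters were matched for 6 of 8 members, and not for Oas1b and Oas2.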

Additional observations from a re-analysis of the deposited data

Results flagged for a closer look

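The response to c-di-GMP differed between a knockout and WT for 16 results, because the 95% bound carried over from the authors' intervals excluded 0 and the difference reached 2-fold. Values are log2 changes in the knockout minus those in WT, on the scale log2(FPKM + 0.1). In Tmem173-/- BMDCs the response was smaller for all 8 OAS genes, by -2.56 for Oas1a, -3.19 for Oas1b, -1.91 for Oas1c, -3.66 for Oas1g, -2.88 for Oas2, -2.89 for Oas3, -6.03 for Oasl1 and -3.09 for Oasl2. In Irf1-/- BMDCs it was larger for 6, by 1.22 for Oas1a, 1.57 for Oas1g, 1.0 for Oas2, 2.14 for Oas3, 1.78 for Oasl1 and 2.89 for Oasl2. In Irf3/7-/- BMDCs it was larger for Oas2, by 1.18, and for Oas3, by 1.27. These larger responses started from lower untreated levels, with median log2 differences from WT of -1.46 in Irf1-/- and -1.42 in Irf3/7-/-. After treatment 0 of 8 members were called between Irf1-/- and WT, where 7.56% of all genes tested were. All 8 lay below treated WT in Irf3/7-/- BMDCs. With a pseudocount of 1 FPKM both differences of Oas2 fell below 2-fold, to 0.42 in Irf1-/- and 0.53 in Irf3/7-/- BMDCs, and their bounds included 0. The bounds cover only what the authors' intervals cover, and the values of Oas1a and Oas1g share reads. How large a share of all genes would be flagged in this way was not computed.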

How the results depend on the processing

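No paired analysis was possible because both samples of a condition were combined before deposition, and for the same reason no sample could be left out. Of the counts of called members and of members whose response differed from WT by its bound, 107 stayed within 1.5 times the main count and 10 moved. The count of such responses in Irf3/7-/- BMDCs stayed within it with a pseudocount of 1 FPKM, though its members changed, as given below. For OAS genes lower in treated Irf3/7-/- than in treated WT BMDCs the count was 3, became 6 at a fold threshold of 1.5 and 0 at a threshold of 4. Against treated Irf1-/- BMDCs the count of 3 became 0 at a threshold of 4 and 1 without Oas1a and Oas1g, an alternative chosen after seeing the data. For untreated BMDCs, a minimum of 5 FPKM took the count lower than in WT from 7 to 4 in Tmem173-/-, from 5 to 3 in Irf1-/- and from 7 to 4 in Irf3/7-/-, and a fold threshold of 4 took it to 4, 3 and 1. Oas1c in untreated Irf3/7-/- BMDCs lost its call under a pseudocount of 1, under median centring and under a z test from the intervals. Of the results for single members, 822 were rated the same, 36 lost a call, 5 gained one, 1 moved and 0 reversed. A difference in response between a knockout and WT was rated the same when it shifted by less than its bound reached to either side. With a pseudocount of 1 FPKM such differences of Oas2 in Irf1-/- and Irf3/7-/- BMDCs lost a bound that excluded 0. So did that of Oas1g in Irf3/7-/- BMDCs, which went from 0.98 to 0.14 and was the 1 result that moved. In Irf3/7-/- BMDCs Oasl1 gained such a bound, and Oas1c, without one, went from 0.12 to -0.11. Median centring shifted the conditions by -0.03 to 0.03 on the log2 scale.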
